A study of Homo sapiens with 6 samples.

Results

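The RAB small GTPases were examined as 1 gene family in cultured human kidney tubule cells. Members were the protein-coding genes whose symbol is RAB followed by a number and at most 1 letter from A to D, which gave 61 of the 29483 genes in the table. HK-2, an immortalised line of proximal tubular epithelium, was kept in 25 mM HG (high glucose) for 7 days in both groups. HG was then continued for 1 more day, in the case group together with 10 μM TEPP-46, a small-molecule activator of the glycolytic enzyme PKM2, and in the control group without it. RNA was sequenced in 3 libraries per group, and no library from cells outside HG was analysed here. Expression was given as FPKM (fragments scaled to the length of the gene and to the depth of the library), which is a level per length, so that different genes can be set side by side.

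The epithelial character of the line was seen in its keratins, while the defining markers of the differentiated proximal tubule were near 0. KRT19 had a mean FPKM of 351.8 in the controls and 340 in the case libraries, and KRT18 had 193.2 and 186.8. KRT8 was at an FPKM of 355.8, 341.7, and 334.6 in the controls and 302.2, 245.9, and 265.7 in the case libraries, without overlap, and had a log2 fold change of -0.27 (SE 0.11, adjusted p = 0.125), not past the threshold. LRP2 and CUBN, which encode the endocytic receptors megalin and cubilin of the tubule brush border, had 0.00229 and 0.0282 in the control group, and AQP1 had 0.0856. LRP2 was at 0 in 5 of the 6 libraries. The list examined for the identity of the cells held 14 genes, of which 9 were below a mean FPKM of 0.5. Of the 5 tested only VIM was called, higher by 0.66 on the log2 scale (SE 0.13, adjusted p = 0.0204), and VIM encodes vimentin, an intermediate filament best known from mesenchymal cells, which cultured epithelial cells can also express. The summed FPKM of the list, of which KRT19 held 35.8%, was 1002, 982.9, and 978.5 against 1040, 826, and 968.6 in the case group, with case replicate 2 the lowest. All 7 fibroblast and endothelial markers with a row in the table were below it as well. A leukocyte marker, CD14, and a podocyte marker, PODXL, were above it and fell in the case group by 1.24 (SE 0.31, adjusted p = 0.0384) and 0.63 (SE 0.14, adjusted p = 0.0309) on the log2 scale, with a mean FPKM of 0.806 against 0.264 for CD14 and 2.56 against 1.54 for PODXL. CD14, with a mean of 0.535 over the 6 libraries, reached 0.5 only through its control values. It had 7 to 31 reads per library, so its fall rests on few reads and on that selection. In their lists the other genes with a row, 1 in each, were below 0.5. The part of these markers in the RAB values was not tested. All 6 libraries were of HK-2 alone, and no other cell type was part of the culture as described. In bulk RNA, a change in some of the cells and a change in all of them cannot be told apart.

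RAB proteins are molecular switches of membrane traffic. A guanine nucleotide exchange factor (GEF) loads a RAB with GTP, the GTP form recruits effectors such as tethers and motor adaptors, and a GTPase-activating protein (GAP) returns it to the GDP form, which GDI (GDP dissociation inhibitor) extracts from the membrane. Each RAB marks a small set of compartments, so that RAB5 stands for early endosomes, RAB4 and RAB11 for recycling, RAB7 for late endosomes, and RAB1, RAB3, RAB6, RAB8, and RAB27 for steps of the secretory route. Proximal tubule cells are known for heavy endocytic uptake and recycling of filtered protein.

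Of the 61 RAB genes, 50 had a mean FPKM of at least 0.5 and were tested, and 7 of them passed an adjusted p of 0.05 in limma with Benjamini-Hochberg adjustment over all 13599 tested genes. Log2 fold changes are case minus control of log2(FPKM + 0.1) after each library was divided by a scaling factor, and SE is their standard error. FPKM values are given as deposited in replicates 1 to 3, for the control group first and, after the word against, for the case group. RAB39B, RAB32, RAB9A, RAB38, and RAB10 rose in the case group, and RAB3B and RAB3D fell. The log2 fold changes of all 50 lay between -0.64 and 0.68. The share called was 14% of the RAB genes (10% higher and 4% lower), against 13.2% of all tested genes (7.34% higher and 5.84% lower), so the family as a whole was called about as often as other genes. Scaled values of the groups did not overlap for 19 of the 50, with 10 higher and 9 lower in the case group, which was 38% against 39.9% of all tested genes (19.5% higher and 20.4% lower). The median log2 fold change was -0.03 over the RAB genes and -0.002 over all tested genes. The summed FPKM of the 61 genes was 829.8 ± 2.40 under HG alone and 849.9 ± 10.4 with TEPP-46 (SD, n = 3).

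The calls depended on which libraries entered the fit. In limma fits without control replicate 1, 2, or 3, or without case replicate 3, the count of called RAB genes was 0, while 10, 10, 11, and 10 of the 50 had an unadjusted p under 0.05, against 23.7%, 22.3%, 24.4%, and 24.8% of all tested genes. In those fits at most 106 of the 13599 genes were called higher and at most 60 lower. Without case replicate 1 the count was 6 higher and 4 lower (12% and 8%, against 8.91% and 7.8% of all tested genes), and without case replicate 2 it was 8 higher and 6 lower (16% and 12%, against 13.2% and 12.1%). A fit by voom, limma's model for read counts, on whole reads recovered from the FPKM values of all libraries called 5 higher and 3 lower (10% and 6%, against 9.57% and 11.1% of all the genes it tested). The median SD of log2 values within a group was 0.0887 in control cells and 0.189 in treated cells.

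**Figure D1:**
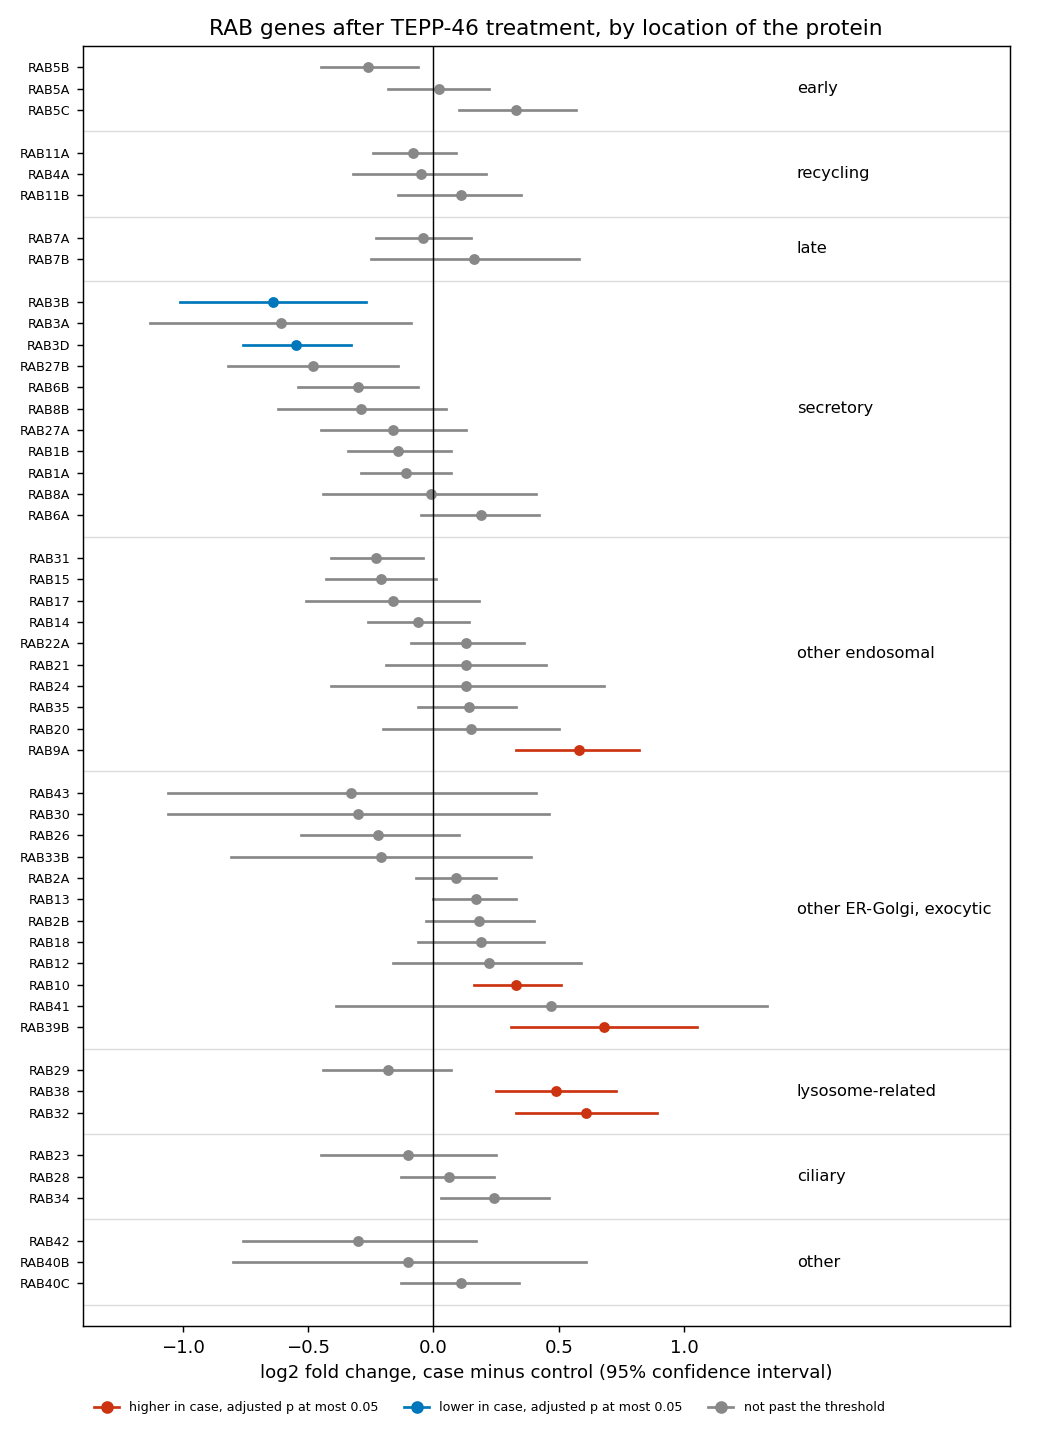
Log2 fold change (x axis, case minus control, log2 of scaled FPKM + 0.1) of each of the 50 tested RAB genes (y axis), grouped by the compartment of the protein. Points are limma estimates from 3 against 3 libraries and lines are 95% confidence intervals, with the 5 called higher in red and the 2 called lower in blue. Of the 11 secretory genes in the rule, 10 lie below 0.

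The 3 early endosome genes had opposite directions among themselves, and none of them was called by limma as reported or by voom. Alternative limma fits did call 2 of them, RAB5B lower on FPKM as deposited, on TPM, with array weights, and without case replicate 2, and RAB5C higher with array weights and without case replicate 2. RAB5A, RAB5B, and RAB5C encode close paralogs that drive fusion of incoming vesicles with early endosomes. RAB5B was at an FPKM of 17.2, 16.8, and 16.2 in control replicates 1 to 3 and 12.6, 14.9, and 12.5 in case replicates 1 to 3, with a log2 fold change of -0.26 (SE 0.09, adjusted p = 0.0823). RAB5C was at an FPKM of 11.7, 9.84, and 10.98 in the controls and 13.3, 12.1, and 13.5 in the case libraries, with a log2 fold change of 0.33 (SE 0.10, adjusted p = 0.0666). Neither gene's values overlapped between the groups, which made 2 of the 3 early genes (66.7%), against 39.9% of all tested genes. RAB5A was at an FPKM of 7.63, 7.31, and 7.62 against 6.54, 8.001, and 7.14, with a log2 fold change of 0.02 and a 95% interval of -0.18 to 0.22. The summed FPKM of the paralogs was 35.1 ± 1.35 under HG alone and 33.5 ± 1.28 with TEPP-46 (SD, n = 3), and the sums overlapped.

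The share of each paralog in the RAB5 sum is a ratio within a library, which no scaling between libraries changes. RAB5B held 47.1%, 49.5%, and 46.6% in control cells and 38.9%, 42.5%, and 37.7% in treated cells. RAB5C held 32.0%, 29.0%, and 31.5% in the controls and 41.0%, 34.6%, and 40.8% in the case libraries. Every case library was thus below every control library for RAB5B and above every one for RAB5C, with case replicate 2 closest to the control group in both. RAB5A stayed between 20.1% and 22.9% in the 6 libraries. RAB5B was larger than RAB5C in every control library, while RAB5C was the larger in case replicates 1 and 3 and the smaller in case replicate 2. These shares are a description with no test. In the annotation, 30.4% of the exon bases of RAB5C also belong to other genes, among them an antisense gene on the opposite strand, and 2 pseudogenes are named after it. The strand used in counting was not stated, so reads from these genes cannot be told apart.

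**Figure D2:**
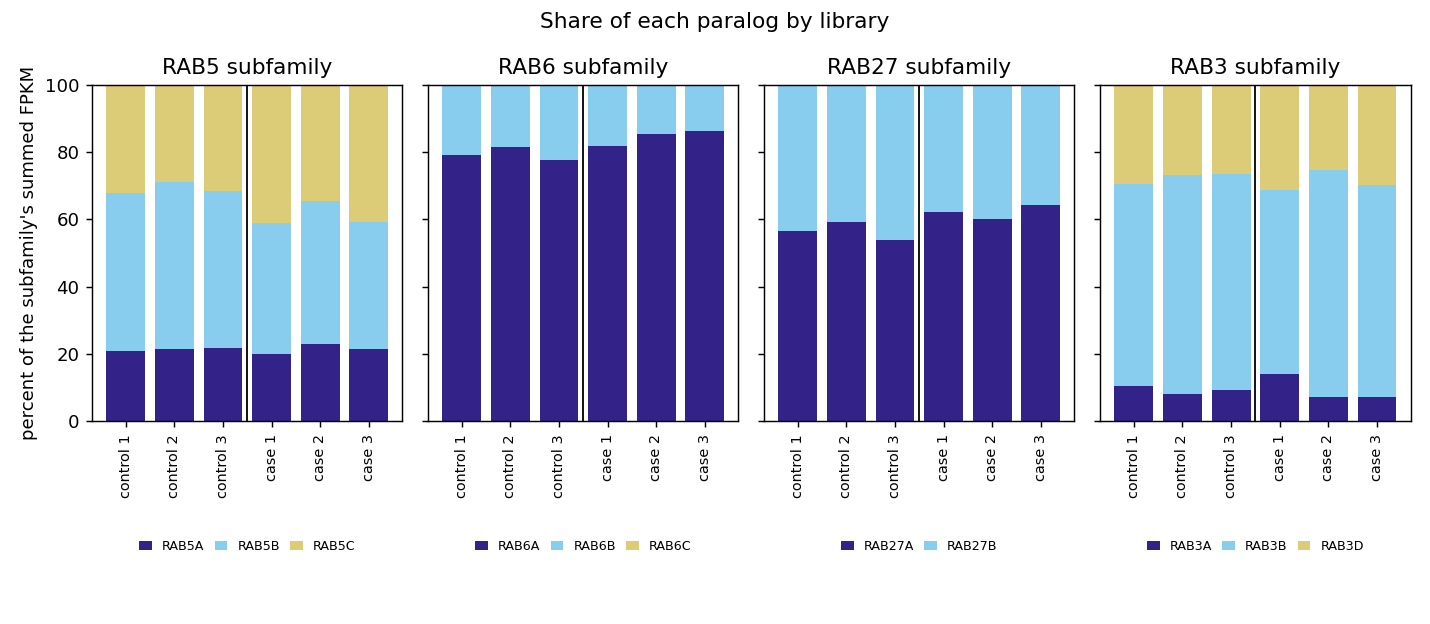
Share of each paralog (y axis, percent of the summed FPKM of its subfamily) in each of the 6 libraries (x axis) for the RAB5, RAB6, RAB27, and RAB3 subfamilies. Stacked bars add to the whole subfamily, and the vertical line parts control from case. RAB5C holds 29.0% to 32.0% in the control libraries and 34.6% to 41.0% in the case libraries, while the 3 shares of the RAB3 subfamily overlap between the groups.

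Of the recycling genes RAB4A, RAB11A, and RAB11B and the late endosome genes RAB7A and RAB7B, 0 were called by limma as reported or by voom. In limma 0 of them had an unadjusted p under 0.05, against 33.1% of all tested genes. On TPM, where each library has the same sum of FPKM, limma called RAB11A lower. RAB11A, the marker of the slow recycling endosome, was at an FPKM of 29.9, 31.0, and 30.0 under HG alone and 25.6, 27.9, and 28.3 with TEPP-46, with a log2 fold change of -0.08 (95% interval -0.24 to 0.09). RAB11B, its close paralog, was at an FPKM of 43.8, 45.2, and 41.6 against 49.7, 40.8, and 43.4, with a log2 fold change of 0.11 (95% interval -0.14 to 0.35). RAB4A, of fast recycling, was at an FPKM of 6.27, 6.72, and 7.06 against 5.78, 5.55, and 7.04, with a log2 fold change of -0.05 (95% interval -0.32 to 0.21). RAB11A was the only one of these 3 recycling genes whose values did not overlap (33.3%, against 39.9% of all tested genes). RAB4B stayed under an FPKM of 0.1 in every library with 0 to 6 reads, and 39.7% of its exon bases are shared with readthrough genes and an antisense gene. RAB7A, which directs fusion of late endosomes with lysosomes, was the second most abundant RAB in the control group, at an FPKM of 67.5, 68.2, and 72.0 against 58.3, 72.3, and 61.9 in the case group. Its log2 fold change was -0.04 with a 95% interval of -0.23 to 0.15, and its values overlapped. RAB7B was at an FPKM of 1.28, 1.01, and 1.01 against 1.31, 1.12, and 1.11, with a log2 fold change of 0.16 (95% interval -0.25 to 0.58).

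Of the secretory genes, RAB3B and RAB3D fell. Of the 12 members in the table, 11 were tested, and 2 fell (18.2%, against 5.84% of all tested genes) and 0 rose (against 7.34%), with a median of -0.29. A log2 fold change below 0 was found for 10 of the 11, as for 6830 of all 13599 genes. The values of 5 (45.5%) did not overlap between the groups, all of them lower in the case group, against 20.4% of all tested genes. The summed FPKM of the 12 was 138.6, 136, and 139.8 in control cells and 112, 124.7, and 118.1 in treated cells, and the groups did not overlap. Over the 19 tested genes of the early, recycling, late, and secretory groups together, the 2 that fell, RAB3B and RAB3D, were the only calls in limma as reported. Of those 19, 6 had an unadjusted p under 0.05 in the lower direction and 1 in the higher in limma. Over all tested genes these shares were 16.2% lower and 16.8% higher. The voom fit called 0 of the 19 higher and 3 lower, where it called 9.57% of all its genes higher and 11.1% lower.

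The RAB3 subfamily acts at the docking of secretory vesicles before regulated exocytosis. It held both calls of the secretory group, 2 of its 3 genes lower, against 5.84% of all tested genes. RAB3B was at an FPKM of 10.5, 11.5, and 11.3 in control replicates 1 to 3 and 5.12, 8.91, and 6.60 in case replicates 1 to 3. All case values were below all control values, and case replicate 2 was nearest to them. The log2 fold change of RAB3B was -0.64 (SE 0.16, adjusted p = 0.0407 by limma). RAB3D was at an FPKM of 5.14, 4.76, and 4.65 in the controls and 2.91, 3.33, and 3.11 in the case libraries, again with no overlap, and its log2 fold change was -0.55 (SE 0.09, adjusted p = 0.0159 by limma). RAB3A, best known from synaptic vesicles, was at an FPKM of 1.86, 1.44, and 1.65 against 1.32, 0.960, and 0.752 on 21 to 63 reads, with a log2 fold change of -0.61 (SE 0.23, adjusted p = 0.107). RAB3A was not called by limma as reported or by voom, but alternative limma fits called it lower on TPM, with array weights, and without case replicate 1. The summed FPKM of the 3 was 17.5, 17.7, and 17.6 under HG alone and 9.35, 13.2, and 10.5 with TEPP-46. The shares within the sum overlapped between the groups, with RAB3B at 63.0% ± 2.71 in control cells and 61.8% ± 6.47 in treated cells (SD, n = 3). RAB3B (ENSG00000169213) lies at chr1:51907956-51990700 on the minus strand of GRCh38 and shares no exon base with another gene. RAB3D (ENSG00000105514) lies at chr19:11322068-11346270 on the minus strand, and 25.1% of its exon bases are shared with other genes, among them TMEM205 and CCDC159.

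**Figure D3:**
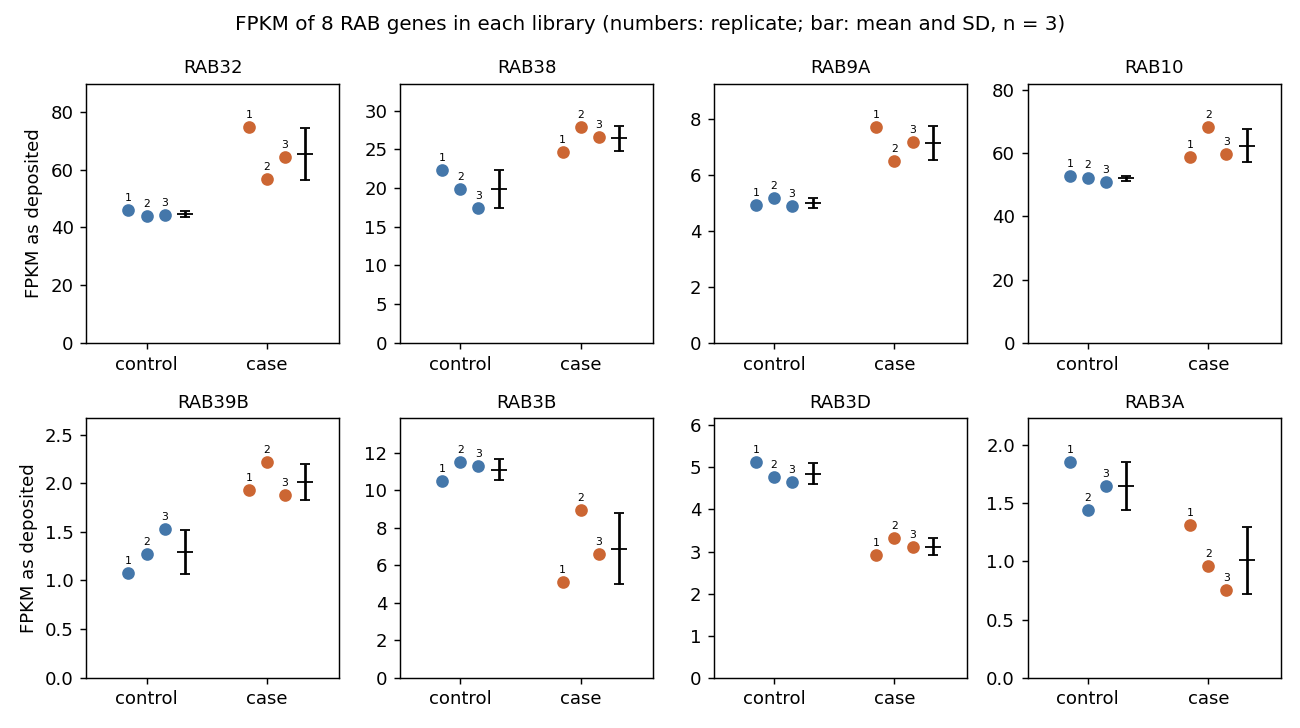
FPKM as deposited (y axis, starting at 0 in each panel) of RAB32, RAB38, RAB9A, RAB10, RAB39B, RAB3B, RAB3D, and RAB3A in the 3 control and 3 case libraries (x axis). Points are libraries numbered by replicate, and the black bar is the mean with its SD (n = 3). The groups do not overlap in any panel, and RAB3A, with case values of 0.752 to 1.32, did not pass the test.

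In the RAB6 and RAB27 subfamilies the less abundant paralog had the lower log2 fold change, and no gene was called by limma as reported. Alternative limma fits called RAB6B lower on TPM, with array weights, and without case replicate 1, RAB6A higher with array weights, and RAB27B lower on TPM, with array weights, and without case replicate 2. RAB6A, which acts at the Golgi in retrograde traffic and in exocytic carriers, was at an FPKM of 15.5, 17.98, and 15.8 against 15.2, 19.1, and 19.0, with a log2 fold change of 0.19 (SE 0.10, adjusted p = 0.242). RAB6B, its paralog best known from neurons, was at an FPKM of 4.04, 4.04, and 4.51 against 3.39, 3.26, and 2.99, with a log2 fold change of -0.30 (SE 0.11, adjusted p = 0.0939). The share of RAB6B in the RAB6 sum was 18.3% to 22.3% in the controls and 13.6% to 18.3% in the case libraries, and the highest case share, 18.26%, was just under the lowest control share, 18.31%. RAB27A and RAB27B tether secretory granules and multivesicular bodies to the plasma membrane. RAB27B was at an FPKM of 2.28, 2.36, and 2.53 against 1.34, 2.00, and 1.51, with a log2 fold change of -0.48 (SE 0.15, adjusted p = 0.0675), and RAB27A was at an FPKM of 2.99, 3.42, and 2.98 against 2.22, 3.01, and 2.74, with a log2 fold change of -0.16 (95% interval -0.45 to 0.13). The voom fit on recovered reads called RAB27B lower. RAB27B held 40.8% to 46.0% of their sum under HG alone and 35.6% to 39.8% with TEPP-46, with no overlap. Outside the RAB5, RAB6, and RAB27 subfamilies, paralog shares overlapped between the groups, except that of RAB40A, a gene below the filter. The shares were not tested.

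No RAB1 or RAB8 gene was called by limma as reported or by voom, while alternative limma fits called RAB1A lower on TPM, RAB1B lower on TPM and under quantile normalization, and RAB8B lower with array weights and without case replicate 2. RAB1A, which serves transport from the endoplasmic reticulum to the Golgi, was at an FPKM of 45.8, 42.0, and 46.5 against 35.9, 42.8, and 39.3, with a log2 fold change of -0.11 (95% interval -0.29 to 0.07). RAB1B was at an FPKM of 41.3, 39.5, and 40.5 against 37.0, 32.5, and 35.1, with a log2 fold change of -0.14 (95% interval -0.34 to 0.07). RAB8A, which carries cargo from the trans-Golgi network to the surface and the cilium, was at an FPKM of 3.14, 2.78, and 3.89 against 3.80, 2.73, and 2.71, with a log2 fold change of -0.01 (95% interval -0.44 to 0.41). RAB8B was at an FPKM of 6.14, 6.22, and 5.57 against 3.84, 5.98, and 4.31, with a log2 fold change of -0.29 (95% interval -0.62 to 0.05). The values of RAB1B as deposited did not overlap between the groups, but they did once the libraries were scaled. Exon bases shared with other genes were 43.8% for RAB1B and 43.9% for RAB8A. RAB6C had 0 to 3 reads in every library.

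RAB32 and RAB38, paralogs that direct cargo to melanosomes and other lysosome-related organelles, both rose. They were 2 of the 3 genes grouped here (66.7%), against 7.34% of all tested genes called higher. RAB32 was at an FPKM of 46.0, 44.01, and 44.4 in control cells and 74.8, 56.8, and 64.4 in treated cells. Its log2 fold change was 0.61 (SE 0.12, adjusted p = 0.0221 by limma), on 940 to 1522 reads. RAB38 was at an FPKM of 22.3, 19.9, and 17.4 against 24.7, 27.9, and 26.6, with a log2 fold change of 0.49 (SE 0.10, adjusted p = 0.0249). No case value of either gene was below a control value, as for 19.5% of all tested genes. RAB29, grouped with them and known as a partner of the kinase LRRK2, was at an FPKM of 11.8, 11.2, and 13.3 against 8.51, 11.2, and 10.6, with a log2 fold change of -0.18 (SE 0.11, adjusted p = 0.275). The summed FPKM of these 3 genes was 76.8 ± 2.87 in the controls and 101.9 ± 6.07 in the case libraries (SD, n = 3). HPS1 and HPS4, the subunits of the GEF of RAB32 and RAB38, were looked up after the values of these RAB genes had been seen. HPS1 was at an FPKM of 8.04, 7.95, and 7.76 against 9.26, 8.28, and 8.62 with an adjusted p of 0.153, and HPS4 had an adjusted p of 0.434. RAB32 (ENSG00000118508) lies at chr6:146543833-146554953 on the plus strand and RAB38 (ENSG00000123892) at chr11:88113251-88175443 on the minus strand, and neither shares exon bases with another gene.

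The promoters of RAB32 and RAB3B are shown because, of the called genes with an entry, these differed most between the groups, 1 in each direction. RefSeq sequences of the 250 bases before the start (GRCh38.p14) were matched for 48 of the 61 members, 5 of them called. They are written 5′ to 3′ on the strand of the gene, RAB32 from chr6:146543583-146543832 on the plus strand and RAB3B from chr1:51990701-51990950 on the minus strand. Capitals mark a match to 1 of the motifs named below.
RAB32: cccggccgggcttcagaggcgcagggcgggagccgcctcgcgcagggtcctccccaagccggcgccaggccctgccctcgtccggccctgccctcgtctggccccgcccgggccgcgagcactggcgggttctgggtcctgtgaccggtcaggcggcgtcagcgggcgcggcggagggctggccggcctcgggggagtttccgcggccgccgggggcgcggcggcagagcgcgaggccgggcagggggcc
RAB3B: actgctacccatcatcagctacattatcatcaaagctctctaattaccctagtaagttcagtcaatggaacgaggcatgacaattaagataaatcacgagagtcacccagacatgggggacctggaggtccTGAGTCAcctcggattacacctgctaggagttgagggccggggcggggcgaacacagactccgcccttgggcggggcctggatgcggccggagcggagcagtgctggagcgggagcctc
The GC content was 82% in the RAB32 window and 56.8% in the RAB3B window, against a median of 58% over 35116 promoters.

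Of 5 motifs searched on both strands, 1 was found in the windows of the 5 called genes. The AP-1 motif TGANTCA was in RAB3B, at position -119 from the start, in 2 of the 48 RAB windows (4.17%) and in 6.57% of all 35116. The E-box CACGTG was in 5 of the 48 (10.4%) and 6.34% of all, and the CCAAT box in 13 (27.1%) and 32% of all. The cyclic AMP response element TGACGTCA and the amino acid response element TGATGNAA were each in 1 of the 48 (2.08%), against 1.65% and 3.14% of all. The letters of no motif contain those of another. A match is a description of the letters in the window, and the motifs were chosen after the data had been seen.

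In rank of level, RAB32 was the fifth most abundant RAB under HG alone and the second with TEPP-46. RAB34 led in both, at a mean FPKM of 109.6 ± 1.27 and 123.4 ± 10.3 (SD, n = 3). In the control group RAB34, RAB7A, RAB13, and RAB10 followed each other without overlap of their library values, and RAB32 at 44.8 ± 1.04 overlapped RAB1A at 44.7 ± 2.44. In the case group RAB32 at 65.4 ± 9.06, RAB7A at 64.1 ± 7.27, RAB13 at 63.9 ± 1.92, and RAB10 at 62.3 ± 5.23 each overlapped the next and had no order beyond their spread. RAB34, which works in cilium formation, was at an FPKM of 110.9, 109.7, and 108.4 against 129.9, 111.5, and 128.7, with a log2 fold change of 0.24 (SE 0.09, adjusted p = 0.118). RAB13, of tight junctions, was at an FPKM of 59.5, 60.9, and 59.6 against 62.9, 62.8, and 66.2, with a log2 fold change of 0.17 (SE 0.07, adjusted p = 0.142).

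The other 3 called genes belong to separate routes. RAB9A returns mannose 6-phosphate receptors from late endosomes to the trans-Golgi network. It was at an FPKM of 4.92, 5.19, and 4.89 in control cells and 7.71, 6.50, and 7.16 in treated cells, a log2 fold change of 0.58 (SE 0.11, adjusted p = 0.0186 by limma). Its values did not overlap, and 5 pseudogenes are named after it, whose reads the counting could have split. RAB10 serves exocytic and basolateral traffic and the insertion of GLUT4 in fat cells. It was at an FPKM of 52.7, 52.3, and 51.0 against 58.9, 68.4, and 59.7, with a log2 fold change of 0.33 (SE 0.07, adjusted p = 0.0281 by limma), and case replicate 2 was the highest. RAB39B, whose loss causes X-linked intellectual disability, was at an FPKM of 1.07, 1.27, and 1.53 against 1.93, 2.22, and 1.88, with a log2 fold change of 0.68 (SE 0.16, adjusted p = 0.0327 by limma). It had 70 to 125 reads per library, the fewest of the called genes, and its paralog RAB39A had 0 to 4. RAB9A (ENSG00000123595) lies at chrX:13689128-13710504 on the plus strand, RAB10 (ENSG00000084733) at chr2:26034084-26137454 on the plus strand, and RAB39B (ENSG00000155961) at chrX:155258235-155264491 on the minus strand.

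No other tested member was called by limma as reported, and voom added RAB27B. Alternative limma fits called RAB31 lower on TPM, with array weights, and without case replicate 2, and RAB15 lower on TPM and with array weights. RAB13 and RAB34 were called higher with array weights and without case replicate 2. RAB18 was called higher with array weights and without case replicate 1, and RAB12 and RAB22A with array weights. Of the 10 other endosomal genes 1 rose, RAB9A (10%, against 7.34% of all tested genes), with a median of 0.13. Of the 12 other genes of the endoplasmic reticulum, the Golgi, and exocytosis 2 rose, RAB10 and RAB39B (16.7%), with a median of 0.18. RAB31, of the route from the trans-Golgi network to endosomes, was at an FPKM of 27.2, 28.5, and 27.0 against 20.9, 24.7, and 21.6, with a log2 fold change of -0.23 (SE 0.08, adjusted p = 0.0916). The 3 ciliary genes had a median of 0.06 and the 3 tested genes of the last group, RAB40B, RAB40C, and RAB42, a median of -0.10. RAB43 shares 79.3% of its exon bases with the readthrough gene ISY1-RAB43, RAB23 57.8% with BAG2, and RAB24 44.8% with MXD3, so their values are uncertain. The 11 members below a mean FPKM of 0.5 were RAB4B, RAB6C, RAB9B, RAB19, RAB25, RAB33A, RAB36, RAB37, RAB39A, RAB40A, and RAB44, none with more than 21 reads in a library.

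Genes that act with RAB proteins were taken as lists for GEF, GAP, effectors, and prenylation with GDI. The prenylation list also held FNTA, FNTB, and PGGT1B, subunits of prenyl transferases other than the main one of RAB proteins. Over the lists together 156 genes were tested. Of these 5 rose and 16 fell (3.21% and 10.3%), against 7.34% and 5.84% of all tested genes, with a median of -0.15 against -0.002. The values of 13 were higher and of 52 lower in the case group without overlap, which was 8.33% and 33.3%, against 19.5% and 20.4% of all tested genes. Without control replicate 1, 2, or 3, or case replicate 3, limma called 0 of the 156, while 30, 29, 33, and 32 had an unadjusted p under 0.05 in the lower direction and 9, 8, 7, and 8 in the higher. Over all tested genes these shares were 10.5% to 12% in the lower direction and 11.8% to 12.8% in the higher. Without case replicate 2, limma called 36 lower and 8 higher, where 12.1% of all tested genes were called lower and 13.2% higher. The voom fit called 35 lower and 6 higher, where 11.1% and 9.57% of all tested genes were called.

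In the list for prenylation and membrane delivery, GDI2 and FNTA rose. Of its 15 tested genes 2 rose (13.3%, against 7.34% of all tested genes) and 0 fell (against 5.84%) in limma, with a median of 0.11. At an unadjusted p under 0.05 in limma, 3 were higher and 2 lower, against 16.8% and 16.2% of all tested genes. By voom 3 were higher and 2 lower, against 9.57% and 11.1% of all the genes it tested. GDI2, which extracts GDP-bound RAB proteins from membranes, was at an FPKM of 74.9, 74.6, and 69.5 in the controls and 79.8, 88.3, and 85.8 in the case libraries, with a log2 fold change of 0.29 (SE 0.07, adjusted p = 0.0375). By its mean over both groups it was the most abundant of its list. In the controls its values overlapped those of RABAC1, at 74.8, 68.3, and 75.2. FNTA, a subunit shared by prenyl transferases other than the main one of RAB proteins, was at an FPKM of 3.79, 3.77, and 3.64 against 4.51, 4.71, and 5.91, with a log2 fold change of 0.49 (SE 0.12, adjusted p = 0.0347).

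Among the 47 tested GEF genes 2 rose and 3 fell (4.26% and 6.38%, against 7.34% and 5.84% of all tested genes), with a median of -0.19. The share called, 10.6%, was near the 13.2% of all tested genes. By voom 2 were higher and 8 lower, against 9.57% and 11.1% of all the genes it tested. RIN1, a GEF of RAB5, was at an FPKM of 6.35, 6.30, and 6.26 against 8.97, 7.12, and 8.38, with a log2 fold change of 0.44 (SE 0.12, adjusted p = 0.0469). TRAPPC4, a core subunit of the TRAPP complexes that activate RAB1, was at an FPKM of 14.6, 14.5, and 14.2 against 17.1, 16.2, and 17.5, with a log2 fold change of 0.31 (SE 0.08, adjusted p = 0.0444). TRAPPC9, a subunit of the TRAPPII complex, went the other way, at an FPKM of 2.81, 3.03, and 2.496 against 1.51, 1.90, and 1.596, with a log2 fold change of -0.63 (SE 0.13, adjusted p = 0.0235). RGP1, which forms a GEF of RAB6A together with RIC1, was at an FPKM of 13.02, 14.5, and 14.3 against 8.68, 9.90, and 6.49, with a log2 fold change of -0.68 (SE 0.15, adjusted p = 0.0265). SBF1, a DENN domain protein, was at an FPKM of 26.9, 27.6, and 26.8 against 19.1, 17.2, and 13, with a log2 fold change of -0.66 (SE 0.14, adjusted p = 0.0259). In each of these 5 genes the groups did not overlap. TRAPPC1, the most abundant GEF gene, was at an FPKM of 55.2, 50.5, and 52.9 against 60.1, 52.3, and 47.9, with a log2 fold change of 0.09 (SE 0.11). MADD, the GEF of RAB3, was looked up after RAB3B and RAB3D had been seen, and was at an FPKM of 5.95, 5.65, and 5.30 against 4.40, 4.04, and 3.81, with a log2 fold change of -0.38 (SE 0.11, adjusted p = 0.0516), not past the threshold.

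Of the 34 tested GAP genes 0 rose (against 7.34% of all tested genes) and 4 fell (11.8%, against 5.84%), with a median of -0.12. At an unadjusted p under 0.05 in limma, 0 were higher and 9 lower, against 16.8% and 16.2% of all tested genes. The voom fit called 0 higher and 8 lower, against 9.57% and 11.1% of all the genes it tested. TBC1D14, a RAB11-binding protein that acts in autophagy, was at an FPKM of 7.39, 7.61, and 7.38 against 4.14, 5.22, and 3.43, with a log2 fold change of -0.74 (SE 0.14, adjusted p = 0.0197). TBC1D16, a GAP of RAB4A, was at an FPKM of 3.08, 3.35, and 2.98 against 1.81, 1.99, and 1.48, with a log2 fold change of -0.74 (SE 0.14, adjusted p = 0.0186). TBC1D2, a GAP of RAB7A also called Armus, was at an FPKM of 19.6, 19.8, and 20.2 against 14.7, 14.2, and 13.4, with a log2 fold change of -0.42 (SE 0.08, adjusted p = 0.0204). It was the most abundant GAP gene, and the groups did not overlap in any of these 3. SGSM2, also called, was at a mean FPKM of 5.92 against 4.26.

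Of 60 tested effector genes, 1 rose and 9 fell (1.67% and 15%, against 7.34% and 5.84% of all tested genes). The median was -0.22, against -0.002 over all tested genes. A log2 fold change below 0 was found for 47 of the 60, as for 6830 of all 13599 genes. The voom fit called 1 higher and 17 lower, against 9.57% and 11.1% of all the genes it tested. RAB11FIP1, which links RAB11 to recycling endosomes, was at an FPKM of 7.23, 7.31, and 7.09 against 3.30, 4.91, and 2.14, with a log2 fold change of -1.04 (SE 0.24, adjusted p = 0.0324). MICAL3, an effector of RAB8 at exocytic sites, was at an FPKM of 7.26, 7.87, and 7.40 against 3.58, 4.79, and 2.94, with a log2 fold change of -0.93 (SE 0.16, adjusted p = 0.015). FYCO1, which couples RAB7 on late endosomes to kinesin, was at an FPKM of 5.71, 6.47, and 6.04 against 2.91, 3.84, and 2.98, with a log2 fold change of -0.82 (SE 0.12, adjusted p = 0.0106). In all 3 genes case replicate 2 was the highest of the case group and still below every control library. OPTN, an effector of RAB8 and an autophagy receptor, was the effector that rose, at an FPKM of 22.9, 25.3, and 23.5 against 27.9, 29.6, and 31.7, with a log2 fold change of 0.39 (SE 0.08, adjusted p = 0.0231). PLIN3, a RAB9 effector and lipid droplet protein, was the most abundant, at an FPKM of 142.4, 136.6, and 133.9 against 128.9, 111.8, and 101.5, with a log2 fold change of -0.20 (SE 0.11, adjusted p = 0.239).

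**Figure D4:**
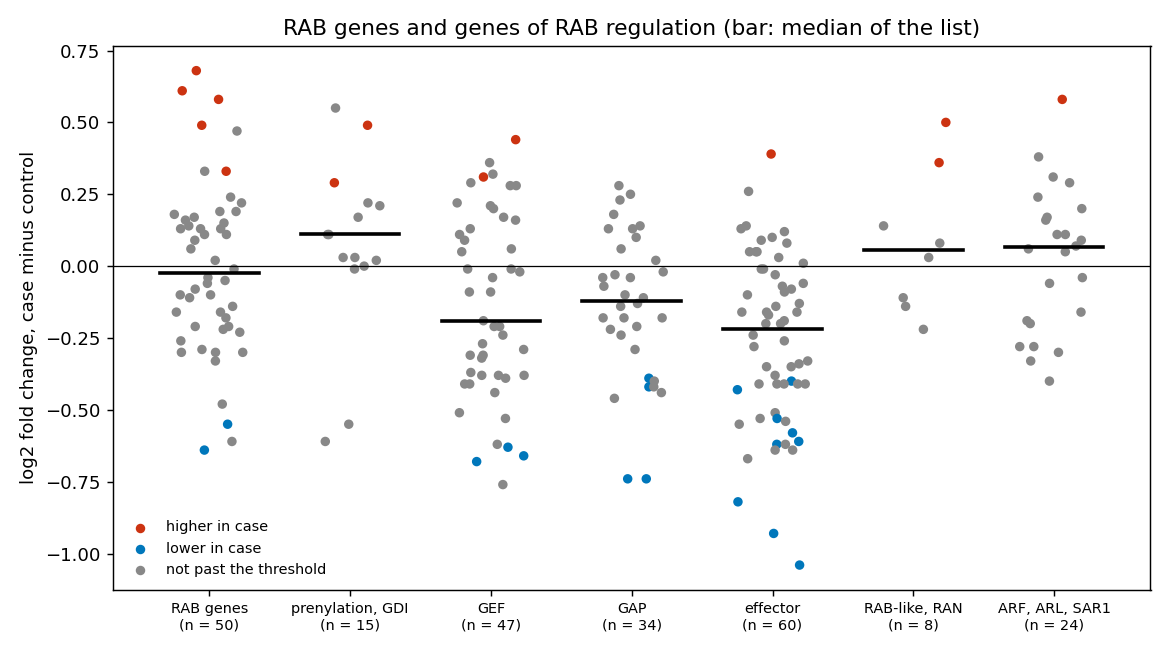
Log2 fold change (y axis, case minus control) of the tested RAB genes and of the tested genes in 6 related lists (x axis). Each point is a gene, red where higher and blue where lower at an adjusted p of at most 0.05, and the black bar is the median of the list. The medians are -0.03 for RAB genes, 0.11 for prenylation and GDI, -0.19 for GEF, -0.12 for GAP, and -0.22 for effector genes.

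The 7 called RAB genes kept their direction under all 19 alternative settings, but not their call. RAB3D and RAB9A were past the threshold in 15 of 19, RAB32 and RAB3B in 13, RAB38 and RAB39B in 12, and RAB10 in 10. The adjusted p of RAB10 ranged from 0.00413 to 0.286 over the 19 and its log2 fold change from 0.13 to 0.37. When libraries were brought to an equal sum of FPKM (TPM), the median of all tested genes moved to -0.19 and the RAB calls to 2 higher and 11 lower (4% and 22%), where 2.82% of all tested genes were called higher and 17.6% lower. The median of the RAB genes was then -0.22, close to that shift.

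**Figure D5:**
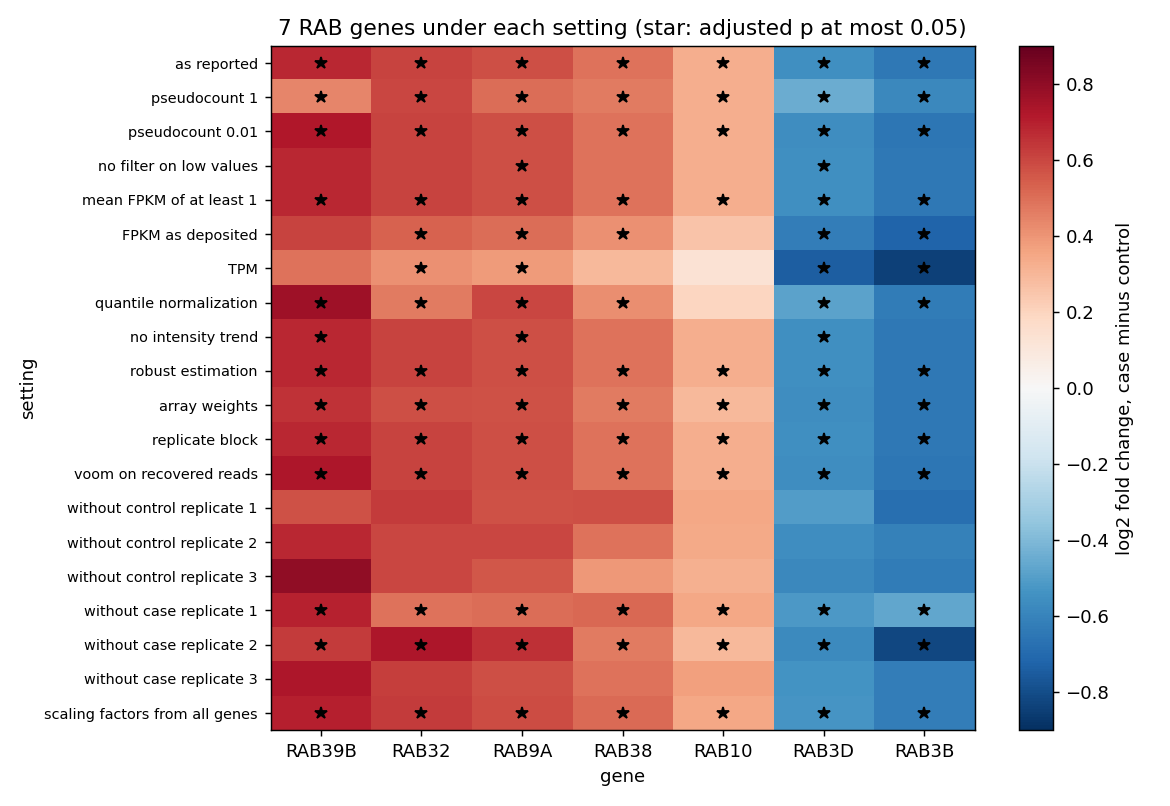
Log2 fold change (colour, case minus control) of the 7 called RAB genes (x axis) under the fit as reported and 19 alternatives (y axis), with a star where the adjusted p was at most 0.05. The colour keeps its sign down every column, and the rows without control replicate 1, 2, or 3 and without case replicate 3 hold no star.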

How the data were processed

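The 6 HK-2 libraries comprised 3 control and 3 case libraries. The authors filtered reads, aligned them with HISAT2 2.1.0 to GRCh38.p13, counted them on genes with HTSeq 0.6.0 (names and versions per the submitters' processing notes) and deposited FPKM values for 29483 genes. The library selection, strand, and annotation version were not given in the sources used here. Symbols, positions, and gene types came from GENCODE release 44 by Ensembl identifier (29063 genes matched). RAB1C, a processed pseudogene, was left out, and RAB3C and RAB6D were not analysed here.

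The members, compartments, gene lists, and tests were chosen with earlier results of these data known, so no list is independent evidence. Each library was scaled by a median-of-ratios factor from genes whose mean FPKM reached 0.5, and log2(value + 0.1) was tested case against control by limma 3.58.1 in R 4.3.3 with an intensity trend and no covariate (two-sided). Fold changes are on that scale, which understates changes of low genes. The test took genes whose mean FPKM reached 0.5, p-values were adjusted over these 13599 genes by the Benjamini-Hochberg method, and genes were called at an adjusted p of at most 0.05.

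Depth was read from the values. Since FPKM values of a gene are multiples of 1 read, whole reads were recovered for 97.13% of the 27922 genes above 0 (tolerance 0.02 reads), which gave 18558022, 17849292, and 17306861 reads in control replicates 1 to 3 and 16642304, 15978259, and 15296390 in case replicates 1 to 3. The sum of recovered reads on genes was lower in every case library. Without molecular identifiers, reads cannot be taken as separate molecules. The paper describes the replicates as independent and treated separately, all of 1 cell line, so p-values measure the spread between such replicates of that line.

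Named were all RAB genes of the early, recycling, late, and secretory groups, other called RAB genes, the 5 most abundant, those under the filter, and, per list, up to 3 called genes in each direction with the largest change and the most abundant gene. Any other gene with values was picked with its values known. The alternatives were other pseudocounts (1 and 0.01), filters, scalings, variance models, a replicate block, voom on recovered reads, and each library left out.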

Additional observations from a re-analysis of the deposited data

How the results depend on the processing

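All 7 called RAB genes kept their sign under the 19 alternatives, and all 7 calls were kept with pseudocounts of 1 and 0.01, a minimum mean FPKM of 1, robust estimation, array weights, the replicate block, voom, and scaling factors from all genes, an alternative chosen after seeing the data. The counts below are genes called higher and lower, first for RAB genes (5 and 2 as reported), then for the early, recycling, late, and secretory groups (0 and 2), then for the GEF, GAP, effector, and prenylation lists together (5 and 16). Without a filter on low values they were 1 and 1, 0 and 1, and 1 and 4, where 1.18% of all 27922 genes tested were called higher and 0.684% lower. On FPKM as deposited RAB genes gave 3 and 3, and 1 list gene was higher, where 4.87% of all tested genes were higher and 8.27% lower. On TPM the counts were 2 and 11, 0 and 9, and 0 and 38, with a median of all genes of -0.19. There 2.82% of all tested genes were called higher and 17.6% lower. Quantile normalization left 3 list genes higher and 16 lower, where 6.42% of all tested genes were called higher and 6.58% lower. Without the intensity trend they were 2 and 1, 0 and 1, and 0 and 10, where 3.21% and 3.06% of all tested genes were called, and with array weights 12 and 9, 2 and 7, and 16 and 51, where 21% of all tested genes were called higher and 20.9% lower. The weights of case replicates 1, 2, and 3 were 0.238, 0.355, and 2.42 in that fit, so its case values rest mainly on case replicate 3. Voom called 35 list genes lower, where it called 11.1% of all the genes it tested lower. Leaving out 1 replicate gave 0 to 8 RAB genes higher and 0 to 6 lower, 0 to 1 and 0 to 5 in the 4 groups, and 0 to 9 and 0 to 36 in the lists. Each count of 0 from leaving out a replicate came with control replicate 1, 2, or 3 or case replicate 3, except that the 4 groups also had 0 higher without case replicate 1.

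Genes that were not called changed sign in places. On TPM, log2 fold changes were -0.11 for RAB2A, -0.09 for RAB11B and RAB40C, -0.01 for RAB18, RAB6A, and RAB2B, -0.06 for RAB21, RAB22A, and RAB35, -0.05 for RAB24 and RAB20, -0.18 for RAB5A, -0.02 for RAB7B, -0.03 for RAB13, -0.14 for RAB28 and ARF1, and -0.11 for TRAPPC1, each above the shift of -0.19. On FPKM as deposited they were -0.06 for RAB5A and -0.02 for RAB28 and ARF1. Under quantile normalization they were 0.05 for RAB8A, -0.005 for RAB11B, -0.05 for TRAPPC1, and -0.16 for ARF1. With array weights they were 0.03 for RAB14, 0.09 for RAB4A and RAB33B, -0.23 for RAB24, and -0.04 for TRAPPC1, and with factors from all genes 8e-06 for RAB8A. Among the fits that leave out 1 replicate, the sign of 10 genes turned, with ranges of -0.19 to 0.11 for RAB8A, -0.26 to 0.03 for RAB23, -0.11 to 0.02 for RAB14, -0.15 to 0.03 for RAB4A, -0.10 to 0.004 for RAB7A, -0.07 to 0.38 for RAB24, -0.04 to 0.06 for RAB5A, -0.23 to 0.05 for RAB40B, -0.41 to 0.08 for RAB33B, and -0.02 to 0.17 for TRAPPC1. The cause was not tested.

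Libraries with the same replicate number had correlations of their deviations from the group means of 0.0634, 0.0999, and -0.0535, so the numbers were not taken as pairs. With the replicate block, 5 RAB genes were called higher and 2 lower, and it changed no RAB call. RAB39B and RAB3A rested on 70 to 125 and 21 to 63 reads per library. The part of depth in their spread was not tested.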

Other observations

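GTPases outside the RAB family were examined beside it. Of 8 tested RAB-like genes, RAN and IFT27 rose (25%, against 7.34% of all tested genes) and 0 fell (against 5.84%) in limma. At an unadjusted p under 0.05 in limma, 2 were higher and 0 lower, against 16.8% and 16.2% of all tested genes. By voom 2 were higher and 0 lower, against 9.57% and 11.1% of all the genes it tested. RAN, the GTPase of nuclear transport, was at an FPKM of 136.8, 133.8, and 129 in the control group and 172.6, 172.4, and 191.7 in the case group, with a log2 fold change of 0.50 (SE 0.08, adjusted p = 0.0139). IFT27, a RAB-like subunit of intraflagellar transport, was at an FPKM of 4.99, 4.57, and 4.46 against 5.92, 5.70, and 5.49, with a log2 fold change of 0.36 (SE 0.10, adjusted p = 0.0463). The groups did not overlap for either gene.

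Of 24 tested ARF, ARL, and SAR1 genes, which recruit vesicle coats and other effectors, ARL16 rose (4.17%, against 7.34% of all tested genes) and 0 fell in limma, with a median of 0.06. At an unadjusted p under 0.05 in limma, 4 were higher and 3 lower, against 16.8% and 16.2% of all tested genes. By voom 2 were higher and 0 lower, against 9.57% and 11.1% of all the genes it tested. ARL16 was at an FPKM of 4.96, 5.13, and 4.70 against 6.52, 6.26, and 8.42, with a log2 fold change of 0.58 (SE 0.13, adjusted p = 0.0273). ARF1, a coat-recruiting GTPase of the Golgi and the most abundant of them, was at an FPKM of 168.5, 164, and 160.1 against 168.2, 160, and 158.5, with a log2 fold change of 0.06 (SE 0.08, adjusted p = 0.63), a sign that turned on FPKM as deposited, on TPM, and under quantile normalization.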
